A study of Homo sapiens with 4 samples.

Results

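The zinc finger genes of human chromosome 19 were examined in NB4 cells, a line from human acute promyelocytic leukemia with the PML–RARA fusion gene. Members were the protein-coding genes on chromosome 19 whose symbol is ZNF followed by digits, with or without a single letter after them. The RefSeq annotation of GRCh38.p14 (hg38) was used. This rule chose 246 of the 19974 protein-coding genes on chromosomes 1 to 22 and X, and left 1205 other coding genes on chromosome 19 for comparison. Chromatin was profiled by CUT&Tag, in which an antibody brings a transposase to its target and the tagged DNA is sequenced. The 4 libraries, all from NB4 cells, were 1 with an antibody to PPARα, 1 with an antibody to PML/RARA, both labelled Treatment, and an IgG library paired by name with each of them, labelled Control. No other genotype, agent, dose or time is given in the labels. The measurements were the deposited peak lists, 1 per antibody with no replicate, so differences between gene sets have no replicate check. Nothing used here says which epitope the PML/RARA antibody sees, so the fusion cannot be told apart from unfused PML or RARA.

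Most of these genes encode proteins with a row of zinc fingers that read DNA, often behind a KRAB domain. The KRAB domain recruits TRIM28 (KAP1), which brings the histone methyltransferase SETDB1 and silences chromatin, in particular at transposable elements. The genes arose largely by tandem duplication and stand in clusters along the chromosome. PPARα is a fatty acid-sensing nuclear receptor that binds DNA with RXR, and PML/RARA is the oncogenic fusion of PML with the retinoic acid receptor RARA.

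PPARα peaks were about as frequent at the zinc finger genes as at other genes of the chromosome and of the genome, and PML/RARA peaks were less frequent than at other genes of the chromosome. A gene was counted when a peak touched the window of 1 kb around either annotated end. A PPARα peak lay at 79 of 246 zinc finger genes (32.1%, 95% Clopper-Pearson interval 26.3 to 38.3), against 390 of 1205 other chromosome 19 coding genes (32.4%, 29.7 to 35.1) and 32.3% of all coding genes. A PML/RARA peak lay at 133 zinc finger genes (54.1%, 47.6 to 60.4), against 813 other genes of the chromosome (67.5%, 64.7 to 70.1) and 57.8% of all coding genes. The PML/RARA difference from the other genes of chromosome 19 was -13.4 percentage points, and against all other coding genes of the genome it was -3.82. Intervals cover counting error over genes only, and neighbouring genes can share a peak.

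Nearly every PPARα peak at a zinc finger gene came with a PML/RARA peak, as at coding genes in general. Of genes with a PPARα peak, 78 of 79 zinc finger genes (98.7%) also had a PML/RARA peak. So did 390 of 390 other genes of the chromosome (100%) and 98.8% of all coding genes with a PPARα peak. Both lists marked 78 zinc finger genes (31.7%) and 390 other genes (32.4%), against a background of 31.9%. PML/RARA alone marked 55 zinc finger genes (22.4%) and 423 other genes of the chromosome (35.1%), against 25.9% of all coding genes. Neither list marked 112 zinc finger genes (45.5%) and 392 other genes of the chromosome (32.5%), against 41.8% of all. Both shares over all coding genes lay inside the intervals of the zinc finger genes (17.3 to 28.1 and 39.2 to 52.0). The exception was ZNF585A, the only zinc finger gene with a PPARα end peak and no PML/RARA end peak. That PPARα peak had a fold enrichment over background of 3.44, at a −log10 q of 1.79, the lowest of the 79. ZNF730, with no end peak, held a PPARα peak inside its body that overlapped no PML/RARA peak (fold 5.64, −log10 q 4.91). Among zinc finger genes with a PML/RARA peak, 78 of 133 also had a PPARα peak (58.6%, 49.8 to 67.1), against 390 of 813 other genes (48.0%, 44.5 to 51.5). The share over all coding genes was 55.2%, inside the interval of the zinc finger genes.

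Where both peaks were present they mostly covered the same DNA, with summits set apart. The peaks of the pair overlapped by at least 1 base at 76 of 78 zinc finger genes (97.4%) and at 359 of 390 other genes (92.1%). Over all coding genes with both peaks this share was 94.9%. The median distance between the PPARα and the PML/RARA summit was 173 bases at zinc finger genes and 195.5 bases at other genes, against 189 over all. Summits lay within 200 bases of each other at 54 of 78 zinc finger genes (69.2%) and at 202 of 390 other genes (51.8%), against 53.5% over all.

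The strongest PPARα peak of the family was at ZNF333, whose gene body runs over chr19:14689787-14733742 on the plus strand of hg38. The authors gave it a fold of 17.7 with a −log10 q of 44.1, and the PML/RARA peak at the same start had a fold of 21.3 with a −log10 q of 224. ZNF808, which silences MER11 elements and is required for human pancreas formation, came next with a PPARα fold of 15.1 (−log10 q 33.9). Its PML/RARA peak had a fold of 16.8 (−log10 q 44.1). ZNF473, which encodes a protein of the histone pre-mRNA processing machinery, had a PPARα fold of 12.6 and a PML/RARA fold of 28.6. ZNF837 had a PPARα fold of 12.2, ZNF146 of 12.7, ZNF83 of 12.2, ZNF699 of 11.3 and ZNF414 of 8.55. ZNF324 and ZNF446 are neighbours that share 1 peak in each list, at the finish of ZNF324 and the start of ZNF446. This shared PPARα peak had a fold of 12.0 (−log10 q 31.5). Folds of the separate lists are not on a common scale, and are used here only to rank genes within a list.

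The highest-ranked PML/RARA peaks fell on partly the same genes. ZNF584 led at a −log10 q of 385 (fold 30.3), followed by ZNF627 at 381 (fold 30.6). ZNF557 had a −log10 q of 365, ZNF473 of 264, and ZNF57 of 241. ZNF57 is the exception among these, with no PPARα peak at all beside a PML/RARA fold of 29.5. ZNF564 had a PML/RARA −log10 q of 222 and a low PPARα peak, of fold 4.28 (−log10 q 2.43). The members with the best summed rank in the lists were ZNF333, ZNF473, ZNF324, ZNF446, ZNF627, ZNF837, ZNF414, ZNF584, ZNF557 and ZNF497.

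Over the family, PPARα peaks were slightly higher in fold, and PML/RARA peaks alike in fold but lower in −log10 q, than at other genes of the chromosome. The median PPARα fold was 8.45 at zinc finger genes and 7.37 at other genes, against 7.06 over all coding genes. The median PPARα −log10 q was 11.4 at zinc finger genes and 10.4 at other genes, against 8.21 over all. PPARα folds at zinc finger genes ranged between 3.44 and 17.7. The median PML/RARA fold was 14.3 at zinc finger genes and 13.97 at other genes, against 14.2 over all coding genes. The median PML/RARA −log10 q was 30.6 at zinc finger genes and 77.6 at other genes, against 43.2 over all. The zinc finger genes were thus nearer to all coding genes than to the rest of the chromosome. PML/RARA peaks at zinc finger genes had a median width of 471 bases, against 512 bases at other genes and 502 over all. PPARα peaks had 537 bases, against 612.5 bases at other genes and 589 over all.

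**Figure D1:**
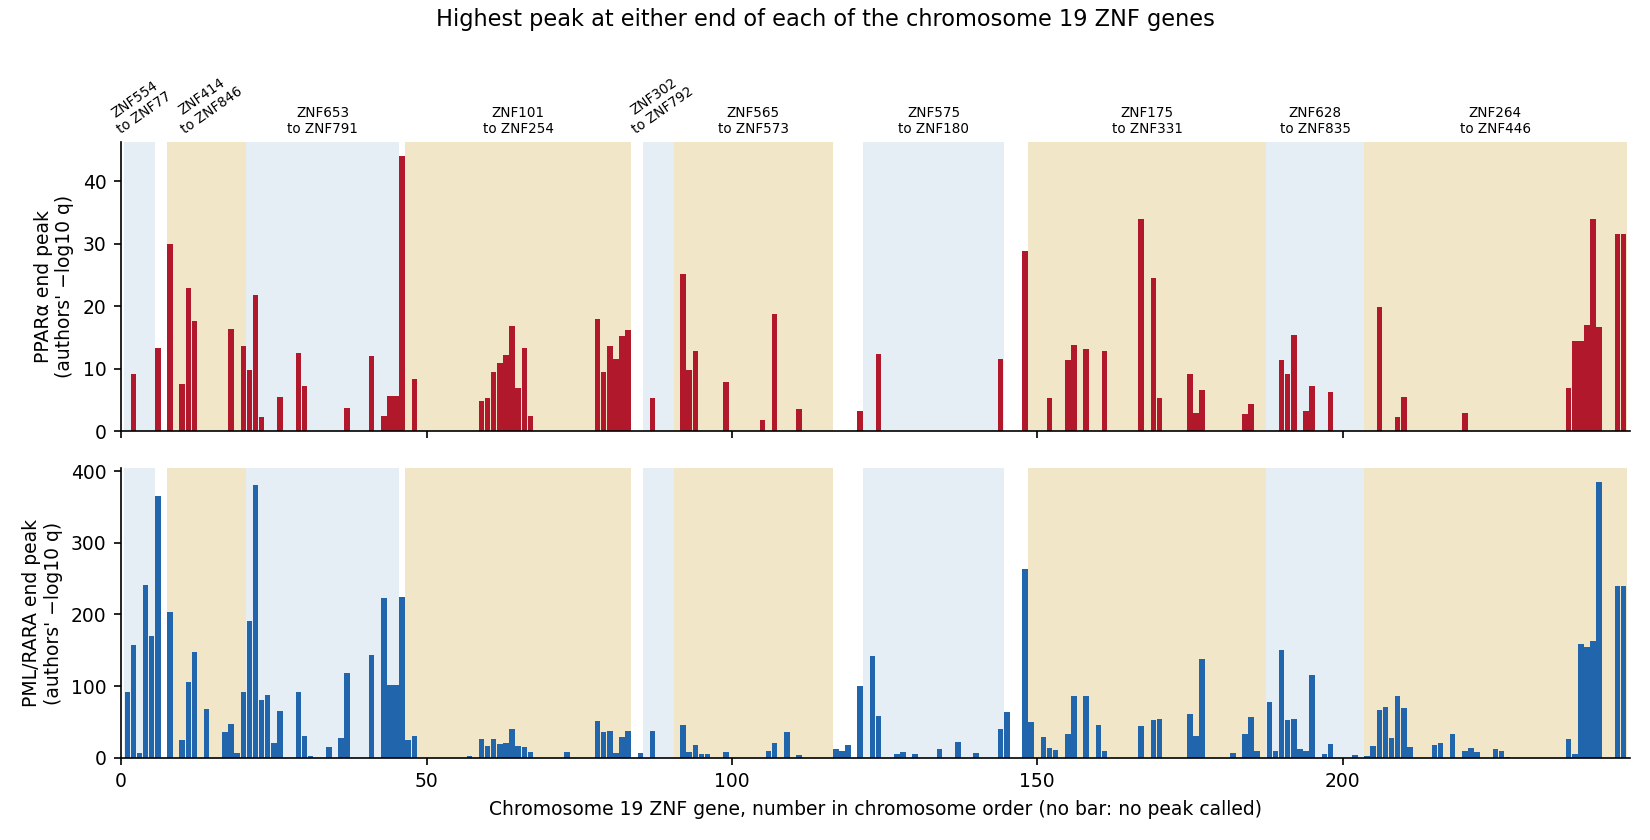
Authors' −log10 q of the highest PPARα (top) and PML/RARA (bottom) peak within 1 kb of either end of each of the 246 chromosome 19 ZNF genes, 1 bar per gene in chromosome order, with clusters shaded and named by their first and last gene and a missing bar where no peak was called. PPARα bars reach 44.1 at ZNF333 and form unbroken blocks in ZNF101 to ZNF254, where the PML/RARA bars stay low.

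Peaks at the zinc finger genes lay at the start, and rarely at the finish. The strand was known for 216 members and 969 other genes, so start and finish could be told apart there. A PPARα peak lay at the start of 70 zinc finger genes (32.4%) and 303 other genes (31.3%), against 33.2% of all coding genes of known strand. A PML/RARA peak lay at the start of 121 zinc finger genes (56.0%) and 629 other genes (64.9%), against 57.0%. At the finish, PPARα marked 3 zinc finger genes (1.39%) and 61 other genes (6.30%), against 2.71%. PML/RARA marked the finish of 7 zinc finger genes (3.24%) and 253 other genes (26.1%), against 10.8%. The 3′ ends of zinc finger genes, which carry the finger-coding exon and are known in other cells for TRIM28 and ZNF274 binding, held few peaks of either list. The finish peaks were at ZNF653 and ZNF324 in both lists, at ZNF544 in the PPARα list, and at ZNF433, ZNF766, ZNF628, ZNF580 and ZNF787 in the PML/RARA list. Those of ZNF324, ZNF544, ZNF766 and ZNF628 also lay at an end of a neighbouring coding gene, namely ZNF446, ZNF8, ZNF480 and NAT14.

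**Figure D2:**
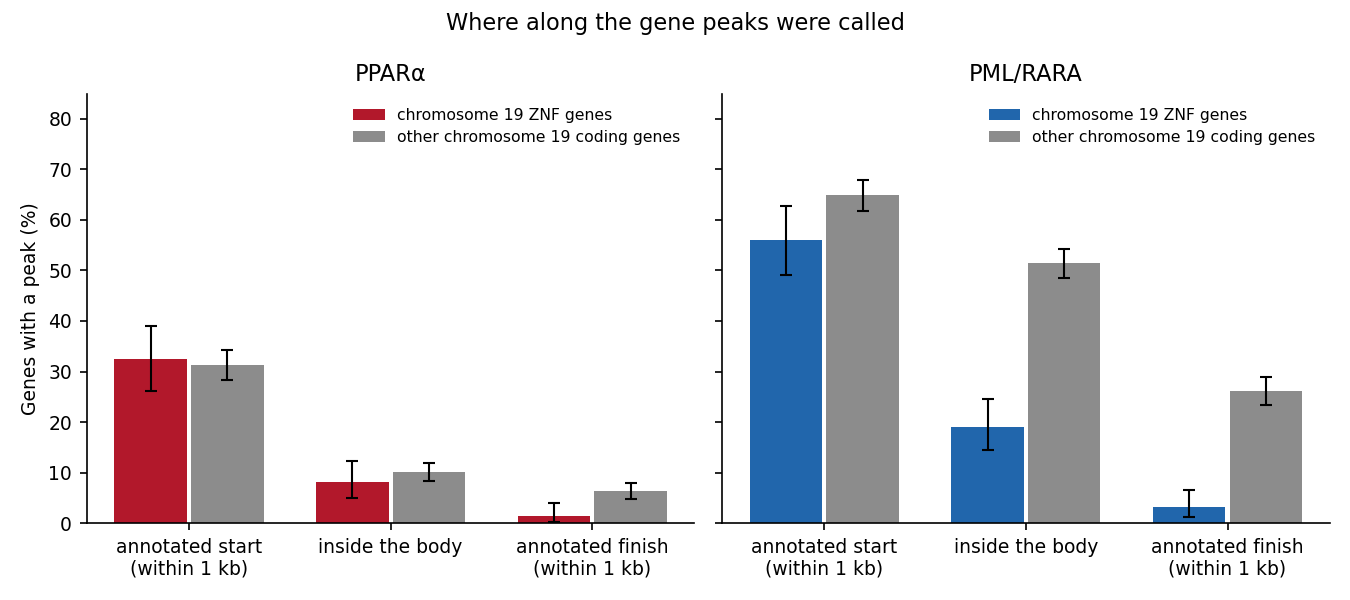
Share of genes with a PPARα peak (left) or PML/RARA peak (right) at the annotated start, inside the body beyond 1 kb of both ends, and at the annotated finish, for chromosome 19 ZNF genes and other chromosome 19 coding genes, with 95% Clopper-Pearson intervals. The PPARα start bars of the gene sets are near each other, and the PML/RARA start bars are 56.0% for ZNF genes and 64.9% for other genes. PML/RARA body and finish bars are 19.1% and 3.24% for ZNF genes, below 51.5% and 26.1% for other genes.

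The bodies of the zinc finger genes were poor in PML/RARA peaks. Beyond 1 kb of both ends, 47 zinc finger genes held a PML/RARA peak (19.1%), against 620 other chromosome 19 genes (51.5%) and 36.5% of all coding genes. Zinc finger genes were longer, with a median of 23151.5 bases against 12763 bases, so the gap was wider per length. There were 9.57 PML/RARA peaks per Mb of zinc finger gene body, against 77.9 per Mb in other chromosome 19 genes and 16.0 per Mb over all coding genes. PPARα marked the body of 20 zinc finger genes (8.13%) and 121 other genes (10.04%), against 10.5%, or 3.44 peaks per Mb against 5.98 in other chromosome 19 genes and 2.05 over all coding genes.

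Most PPARα body peaks lay at further starts that RefSeq lists inside the gene. Of 23 PPARα body peaks, 17 were within 1 kb of a listed start of the same gene, and 22 overlapped a PML/RARA peak. Of 64 PML/RARA body peaks, 26 were at a listed start and 34 were neither there nor at an end of another coding gene. The highest were at ZNF558, with a PPARα fold of 14.2 and a PML/RARA fold of 20.8 at a listed start that is also an end of MBD3L1. ZNF584, ZNF574, ZNF846 and ZNF324B followed in the PML/RARA list, with folds of 24.8, 24.8, 31.1 and 25.3, all at listed starts. The next PPARα body peaks were at ZNF114, with a fold of 12.2, ZNF565 at the start of its neighbour ZNF146, with 12.7, ZNF302 with 10.2 and ZNF254 with 9.17. Counting any listed start, the PPARα share became 82 of 216 zinc finger genes (37.96%) against 316 of 969 other genes (32.6%), and the PML/RARA share 139 of 216 (64.4%) against 652 of 969 (67.3%). With that definition, chosen after the data were seen, the PML/RARA difference was -2.93 percentage points.

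PPARα summits were rare in the stretch just before the start, where PML/RARA summits were most frequent. Of 121 PML/RARA summits at zinc finger starts, 49 lay in the 100 bases before the start (40.5%), the most of any 100-base bin, and the median was -59 (minus marks upstream). Of 70 PPARα summits, 2 lay in those same 100 bases (2.86%). Other chromosome 19 genes showed the same pattern. There the bin held 168 of 629 PML/RARA summits (26.7%), also the most of any bin, and 18 of 303 PPARα summits (5.94%). The other PPARα summits at zinc finger starts stood on both sides, with 26 farther upstream and 42 at or after the start. Where both lists marked a zinc finger start, the PPARα summit was more than 50 bases upstream of the PML/RARA summit at 27 of 69 genes (39.1%), more than 50 bases downstream at 35 (50.7%), and within 50 bases at 7 (10.1%). At other chromosome 19 genes the summits were also mostly apart, with the PPARα summit upstream at 130 of 303 genes (42.9%), downstream at 133 (43.9%) and within 50 bases at 40 (13.2%). The sides differed in count around the start itself. PPARα summits had a median of +61 at zinc finger genes and -145 at other genes, against +36 over all coding genes. Upstream were 28 of 70 (40%) at zinc finger genes and 174 of 303 (57.4%) at other genes, against 45.3% over all. In ZNF101 to ZNF254, all 15 members with both start summits had the PPARα summit after the start. No test was made of the difference between the gene sets. PPARα summits were within 250 bases of the start at 53 of 70 zinc finger genes (75.7%) and 147 of 303 other genes (48.5%), against 59.6% over all. For PML/RARA these counts were 102 of 121 (84.3%) and 435 of 629 (69.2%), against 74.1%.

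**Figure D3:**
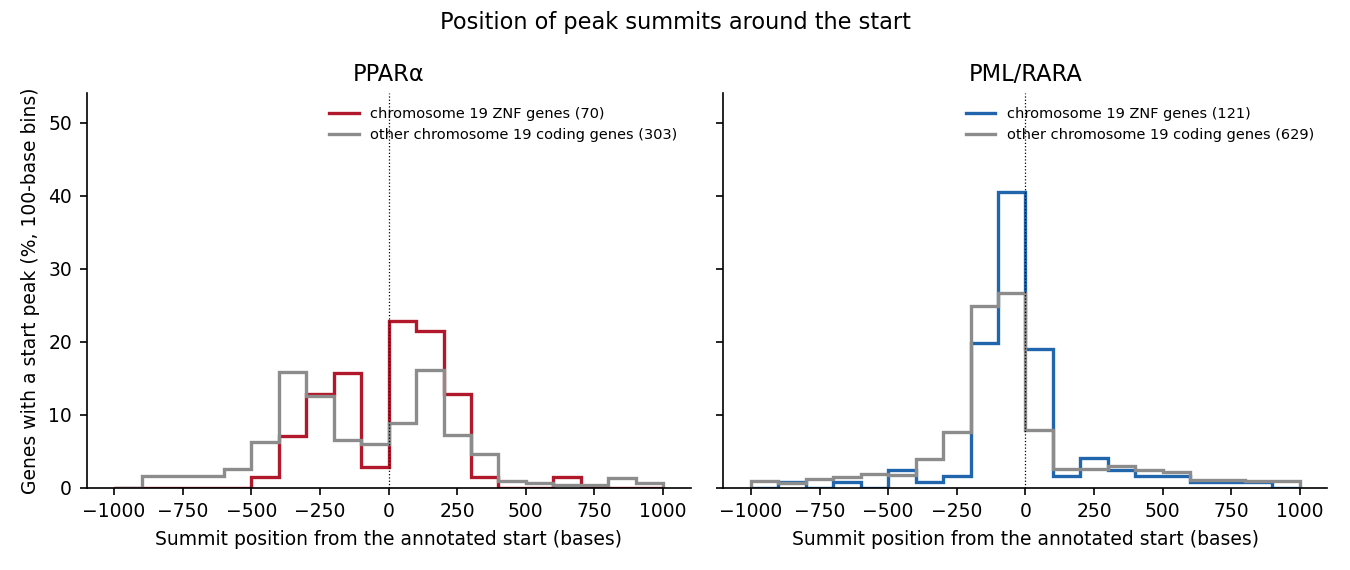
Distribution of summit positions around the annotated start, in 100-base bins, as a percentage of the genes with a start peak, for PPARα (left) and PML/RARA (right), with negative positions upstream. The PPARα lines dip in the 100 bases before the start, where the PML/RARA lines peak, at 40.5% for ZNF genes and 26.7% for other genes.

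At low PML/RARA −log10 q, a PPARα peak was more frequent beside it at zinc finger genes than at other genes of the chromosome. Genes with a PML/RARA start peak were put into quartiles of that peak's −log10 q over chromosome 19, a division chosen after the data were seen. In the lowest quartile, 14 of 46 zinc finger genes also had a PPARα start peak (30.4%, 17.7 to 45.8), against 11 of 142 other genes (7.75%, 3.93 to 13.4). In the second quartile the counts were 29 of 41 (70.7%, 54.5 to 83.9) against 52 of 145 (35.9%, 28.1 to 44.2). In the third they were 18 of 23 (78.3%) against 95 of 165 (57.6%), and in the highest 8 of 11 (72.7%) against 145 of 177 (81.9%), with overlapping intervals. Grouped by fold in place of q, the sets lay closer together. Shares by fold quartile, low to high, were 23.3%, 51.7%, 75.8% and 75.9% for zinc finger genes, against 11.4%, 44.9%, 65.6% and 71.1% for other genes, with overlapping intervals in every quartile. PML/RARA peaks of zinc finger genes had a lower −log10 q at a like fold, as given above, and the part of this in the gap by q was not tested.

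**Figure D4:**
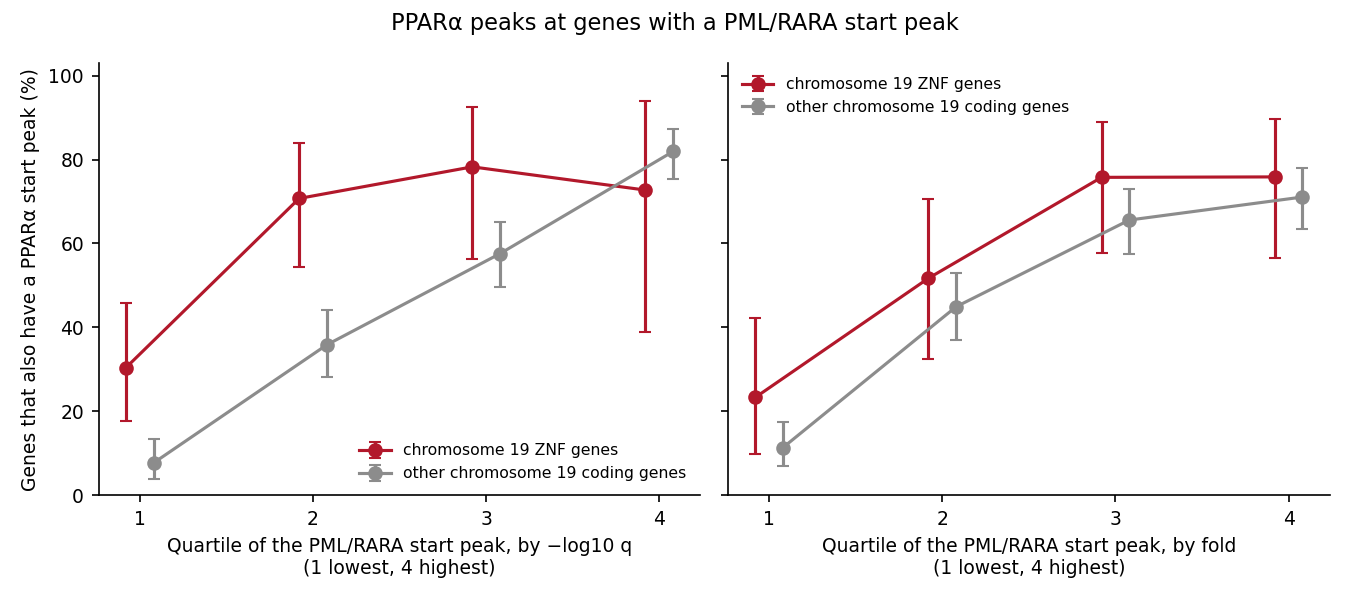
Share of genes with a PML/RARA start peak that also have a PPARα start peak, by quartile of the PML/RARA peak over chromosome 19, ranked by the authors' −log10 q (left) or fold (right), for ZNF genes and other coding genes with 95% Clopper-Pearson intervals. By −log10 q the ZNF genes lie above the other genes in the lower quartiles, at 30.4% against 7.75% in the first, while by fold all intervals overlap.

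Along the chromosome the genes were split into clusters wherever neighbouring members were more than 500 kb apart, which gave 10 clusters of at least 4 members and 14 scattered genes. PPARα shares ran between 8.70% and 46.2% over clusters. The cluster from ZNF575 to ZNF180 was lowest, with PPARα at 2 of 23 members (8.70%, 1.07 to 28.0), namely ZNF428 and ZNF180, and PML/RARA at 9 (39.1%). It holds ZNF224, a KRAB repressor, with a PML/RARA fold of 9.28 and no PPARα peak, and the first members without any end peak were ZNF575, ZNF283 and ZNF404. ZNF414 to ZNF846 was highest, with PPARα at 6 of 13 members (46.2%, 19.2 to 74.9), led by ZNF414, ZNF699 and ZNF559, and PML/RARA at 9. ZNF653 to ZNF791 had PPARα at 11 of 25 (44.0%), led by ZNF627, ZNF700 and ZNF443, and PML/RARA at 16. In ZNF554 to ZNF77, all 5 members had a PML/RARA peak and only ZNF555 a PPARα peak, with a fold of 7.84. The intervals of all 10 clusters overlapped one another in each list.

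The other clusters of the long arm, which also holds ZNF575 to ZNF180, were mixed. ZNF565 to ZNF573 had PPARα at 7 of 26 members, led by ZNF146, ZNF383 and ZNF260, and PML/RARA at 10 (38.5%), with a median PML/RARA fold of 7.497. ZNF302 to ZNF792 had both lists at 1 of 5 members, ZNF181. ZNF175 to ZNF331 had PPARα at 13 of 39, led by ZNF808, ZNF83 and ZNF432, and PML/RARA at 19 (48.7%). ZNF350, known as a BRCA1-binding repressor, had there a PML/RARA fold of 8.30 and no PPARα peak, and the imprinted gene ZNF331 had no peak at its ends. ZNF628 to ZNF835 had PPARα at 6 of 16, led by ZNF784, ZNF524 and ZNF865, and PML/RARA at 11. ZNF264 to ZNF446 had PPARα at 12 of 43, led by ZNF837, ZNF324 and ZNF446, and PML/RARA at 25 (58.1%). In that last cluster 9 neighbours without a peak, ZNF587B to ZNF329, were followed by 6 with both, ZNF274 to ZNF584. Among these, ZNF544 counts by a PPARα peak at its finish, which is the start peak of ZNF8. ZNF274, which recruits SETDB1 to the 3′ ends of zinc finger genes, had a PPARα fold of 6.72 and a PML/RARA fold of 11.9 at its start.

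**Figure D5:**
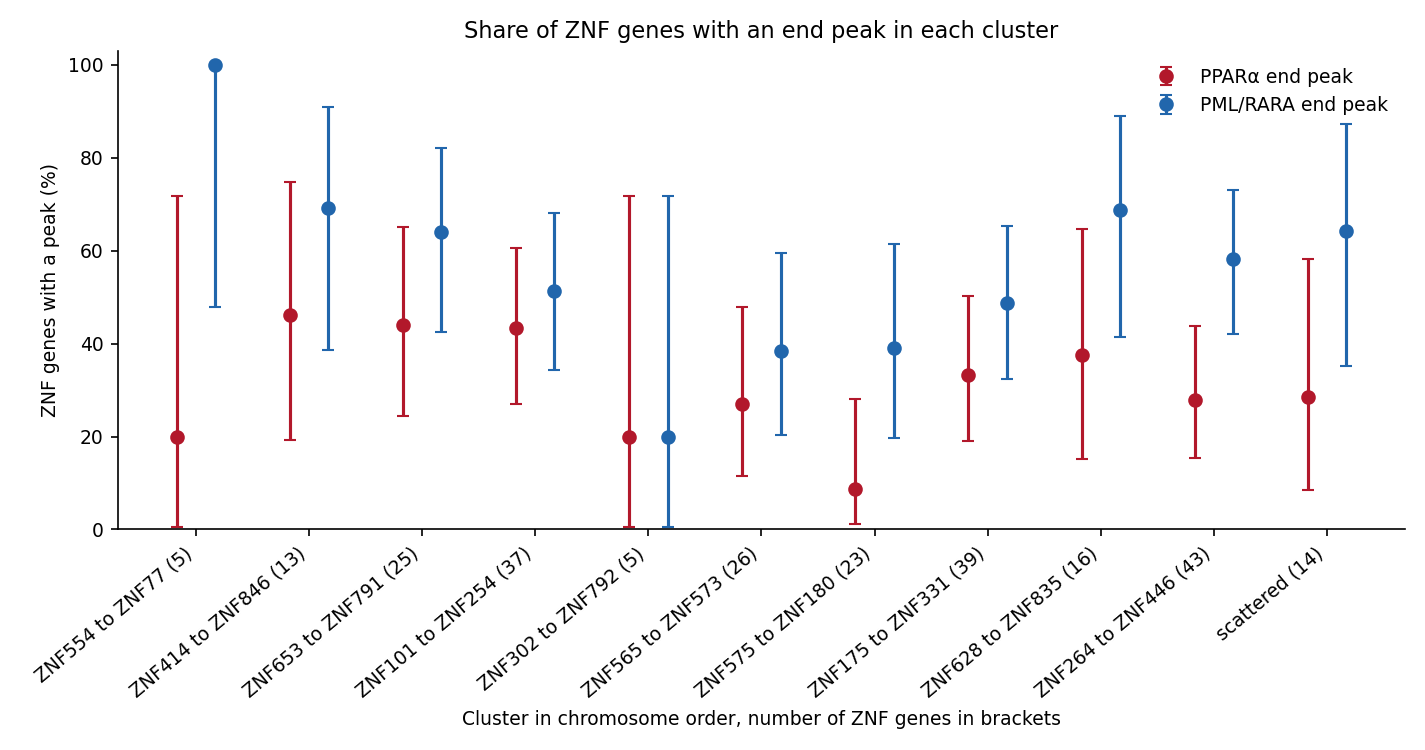
Share of ZNF genes with a PPARα or PML/RARA end peak in each cluster along chromosome 19 and among the scattered genes, with 95% Clopper-Pearson intervals and the number of genes in brackets. PPARα lies between 8.70% in ZNF575 to ZNF180 and 46.2% in ZNF414 to ZNF846, and in ZNF101 to ZNF254 it comes closest to PML/RARA among the clusters of more than 5 genes.

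The cluster from ZNF101 to ZNF254, next to the centromere at chr19:19668153-24129968 of hg38, was arranged in blocks. PPARα marked 16 of its 37 members (43.2%, 27.1 to 60.5) and PML/RARA 19 (51.4%, 34.4 to 68.1), so 84.2% of the PML/RARA-marked members carried both. The 8 neighbours from ZNF506 to ZNF626 had no end peak, and the 9 from ZNF430 to ZNF43 all had both. The 5 from ZNF208 to ZNF98 and the 4 from ZNF99 to ZNF730 had no end peak, and the 6 from ZNF724 to ZNF254 all had both. ZNF730 held a PPARα peak inside its body, at a listed start. ZNF91, which represses SVA elements, stands in the last of these blocks, with a PPARα fold of 8.05 and a PML/RARA fold of 18.5. ZNF93, which represses LINE-1 elements, stands in the first block without peaks. PPARα folds in the blocks with both were led by ZNF493 with 11.4, ZNF724 with 11.3 and ZNF726 with 10.7, and the lowest was ZNF43 with 4.31. The PML/RARA peaks of the cluster had a median −log10 q of 24.6, against 30.6 over all members. Over all clusters, the next member along the chromosome had a PPARα peak in 37 of 70 cases after a member with a peak (52.9%) and in 36 of 152 after a member without (23.7%). For PML/RARA these counts were 75 of 118 (63.6%) and 42 of 104 (40.4%). These counts include neighbours that share a peak, of which there were 3 PPARα and 4 PML/RARA pairs. They also pool clusters with unlike shares of marked members. No like count was made for neighbouring genes outside the family, so whether such agreement is particular to it was not tested.

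Promoters of this cluster are shown because members with and without peaks carry closely related sequences. RefSeq's table of GRCh38.p14 gave a promoter, 250 bases before to 50 bases after a listed start, for 216 of the 246 members. Of these starts, 187 were within 1 kb of the annotated one and 29 were farther away. Members are classed by peaks at their annotated ends, so a promoter classed as neither can itself hold peaks. The listed starts of ZNF324B, ZNF749 and ZNF302, for example, had a peak in both lists and are counted under neither. Among members with both peaks and a listed promoter at the annotated start, those of highest PPARα −log10 q are ZNF724 (chr19:23250345-23250644, minus strand), ZNF493 (chr19:21396883-21397182, plus strand) and ZNF726 (chr19:23914636-23914935, plus strand). The first with a listed promoter in the block without peaks are ZNF93 (chr19:19900696-19900995, plus strand), ZNF682 (chr19:20039456-20039755, minus strand) and ZNF90 (chr19:20077750-20078049, plus strand). Capitals mark TCCAATCAG and CCGGAAG on either strand.
ZNF724: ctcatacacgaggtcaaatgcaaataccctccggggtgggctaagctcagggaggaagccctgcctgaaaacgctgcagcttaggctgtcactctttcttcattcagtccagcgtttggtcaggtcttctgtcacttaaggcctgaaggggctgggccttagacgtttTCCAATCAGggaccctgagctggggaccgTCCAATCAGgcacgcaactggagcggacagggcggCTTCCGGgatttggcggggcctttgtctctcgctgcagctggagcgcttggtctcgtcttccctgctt
ZNF493: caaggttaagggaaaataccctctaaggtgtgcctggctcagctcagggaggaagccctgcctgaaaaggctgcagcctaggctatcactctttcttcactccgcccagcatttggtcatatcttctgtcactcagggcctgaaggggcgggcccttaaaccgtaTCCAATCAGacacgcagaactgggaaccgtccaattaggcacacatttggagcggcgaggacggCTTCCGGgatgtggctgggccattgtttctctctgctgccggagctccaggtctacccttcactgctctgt
ZNF726: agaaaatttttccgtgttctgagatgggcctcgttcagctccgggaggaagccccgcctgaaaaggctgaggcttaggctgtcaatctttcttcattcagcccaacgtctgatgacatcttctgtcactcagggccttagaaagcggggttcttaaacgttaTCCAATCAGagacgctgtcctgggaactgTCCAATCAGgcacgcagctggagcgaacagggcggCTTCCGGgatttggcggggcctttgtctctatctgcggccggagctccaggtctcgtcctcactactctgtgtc
ZNF93: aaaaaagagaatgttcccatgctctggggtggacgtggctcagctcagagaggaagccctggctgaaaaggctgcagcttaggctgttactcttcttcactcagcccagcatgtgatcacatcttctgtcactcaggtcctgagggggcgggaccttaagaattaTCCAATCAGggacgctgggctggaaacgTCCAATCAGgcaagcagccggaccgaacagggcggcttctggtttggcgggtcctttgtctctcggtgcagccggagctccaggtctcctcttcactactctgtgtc
ZNF682: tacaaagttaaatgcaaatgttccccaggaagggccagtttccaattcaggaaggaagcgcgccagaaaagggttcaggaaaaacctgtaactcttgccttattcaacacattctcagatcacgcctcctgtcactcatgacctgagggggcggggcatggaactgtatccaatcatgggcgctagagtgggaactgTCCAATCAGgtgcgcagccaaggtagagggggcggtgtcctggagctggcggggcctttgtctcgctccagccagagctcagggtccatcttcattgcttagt
ZNF90: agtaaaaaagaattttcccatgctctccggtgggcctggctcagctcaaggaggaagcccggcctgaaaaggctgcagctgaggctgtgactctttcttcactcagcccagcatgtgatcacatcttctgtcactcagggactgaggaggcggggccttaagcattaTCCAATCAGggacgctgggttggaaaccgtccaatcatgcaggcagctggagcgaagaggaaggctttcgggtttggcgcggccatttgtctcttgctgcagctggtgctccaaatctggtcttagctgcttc
The promoter of ZNF724, with both peaks, was 78.2% identical to that of ZNF493, 74.8% to that of ZNF726 and 76.4% to that of ZNF93, which had no peak. ZNF682 was the most distant, at 65.6% to 67.3% identity with the other 5. The printed promoters of ZNF93, ZNF682 and ZNF90 lack CCGGAAG, and those of ZNF724, ZNF493 and ZNF726 hold 1 each. Over the cluster that split was not general, since CCGGAAG was in 12 of 15 promoters of members with both peaks and in 7 of 11 of members with neither.

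Promoter identity was alike within and between marked and unmarked members of the cluster. Median identity was 76.0% between promoters with both peaks, 77.7% between promoters with neither and 76.4% between a promoter with both and a promoter with neither. Members of different clusters had a median identity of 50.4%. Runs of 50 bases shared with another promoter elsewhere were rare, in 3 of 71 promoters with both peaks, 0 of 51 with PML/RARA alone and 3 of 93 with neither. How reads that match several places were mapped is not stated in the notes used here, and its part in the blocks was not tested.

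Within the cluster the PPARα summit mostly stood after the PML/RARA summit. Of the 15 members with both summits at the annotated start, all 15 had the PPARα summit after the start and 13 the PML/RARA summit before it. The order was reversed at ZNF43, with the PPARα summit at 243 and the PML/RARA summit at 270, so the PPARα summit was downstream at 14 of 15. Of the 13 members with both summits and a listed start within 1 kb of the annotated one, all 13 had the PPARα summit after the start, with a median of 142 bases and a range of 25 to 260. Their PML/RARA summits were before the start in 12 of 13, with a median of -64 and a range of -111 to 18. CCGGAAG stood at a median position of -18 in the 17 promoters with such a listed start that hold it. At 9 of the 10 that also have both summits the PML/RARA summit was within 50 bases of it, with a median distance of 46 over the 10. ZNF14, ZNF714 and ZNF429 lack CCGGAAG and had PML/RARA summits at -44, -67 and -55. TCCAATCAG was nearer the PML/RARA summit than CCGGAAG at some members, such as ZNF91, and farther at others, such as ZNF100. A link of either word to the summits was not tested. These counts were made after the data were seen.

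TCCAATCAG, which contains the CCAAT box, was found in 3 clusters of the short arm. It was on either strand of 29 of 29 promoters of ZNF101 to ZNF254, 19 of 24 of ZNF653 to ZNF791 and 4 of 5 of ZNF554 to ZNF77, and in none of the promoters of the other 7 clusters or the scattered genes. In total 52 of 216 member promoters held it (24.1%), against 5 of 969 on the rest of chromosome 19 (0.516%) and 0.993% of all coding promoters. Among members classed by peaks at the annotated ends, it was in 24 of 71 promoters with both peaks (33.8%), 11 of 51 with PML/RARA alone (21.6%) and 17 of 93 with neither (18.3%). Since all promoters of ZNF101 to ZNF254 hold it, it does not tell the blocks apart there. CTGTCACTC was in 26 of 29 promoters of ZNF101 to ZNF254 and 11 of 24 of ZNF653 to ZNF791 and in no other cluster, with 0 of 5 in ZNF554 to ZNF77. That made 37 of 216 member promoters (17.1%), against 0.826% of other chromosome 19 promoters and 0.847% of all. These words were picked from the members' promoters, so their frequency there is a description.

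CCGGAAG, which contains the core bound by ETS factors, varied between clusters. It was in 3 of 4 promoters of ZNF302 to ZNF792, 21 of 29 of ZNF101 to ZNF254 (72.4%), 27 of 40 of ZNF264 to ZNF446 (67.5%) and 20 of 32 of ZNF175 to ZNF331 (62.5%). By contrast it was in 2 of 24 of ZNF653 to ZNF791 (8.33%) and 0 of 5 of ZNF554 to ZNF77. Pooled, it was in 97 of 216 member promoters (44.9%), against 126 of 969 other chromosome 19 promoters (13.0%) and 14.1% of all. By peaks at the annotated ends, it was in 36 of 71 with both peaks (50.7%), 21 of 51 with PML/RARA alone (41.2%) and 39 of 93 with neither (41.9%). The shorter CCGGAA, which CCGGAAG contains, was in 55.6% of member promoters, against 21.8% of other chromosome 19 promoters and 22.7% of all. CCAAT was in 54.2% against 37.4% and 36.4%, and GGGCGG, the letters of the GC box, in 67.1% against 65.7% and 58.3%. AGGTCA, the half-site of nuclear receptors that pair with RXR, was in 29 of 216 member promoters (13.4%), against 11.6% of other chromosome 19 promoters and 11.8% of all. It was in 11 of 71 promoters with both peaks and 12 of 93 with neither. Direct repeats of AGGTCA with spacers of 1, 2 or 5 bases were in none of the 216, and the spacer of 1 in 3 of all 15813. AAGATGG was in 8 of 71 with both peaks (11.3%) and 4 of 93 with neither (4.30%), against 6.36% of all, and TGACGT in 11 (15.5%) and 6 (6.45%), against 9.64%. Other chromosome 19 promoters differed in the same direction. There AAGATGG was in 10.9% with both peaks and 3.16% with neither, and TGACGT in 13.5% and 7.72%. A match is a description of the letters in the window on either strand, not a binding site.

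CpG content varied less with peaks in this family than elsewhere. By peaks at the annotated ends, promoters of zinc finger genes had a median of 22 CpG with both peaks, 22 with PML/RARA alone and 18 with neither. Other chromosome 19 promoters had 26.5 with both, 21 with PML/RARA alone and 9 with neither. In the lowest band, up to 9 CpG, PPARα marked 3 of 15 zinc finger genes (20%) and 32 of 258 other genes (12.4%). In the band of 10 to 17 CpG, PPARα marked 22 of 68 zinc finger genes (32.4%) and 38 of 158 other genes (24.1%). In the band of 18 to 24, it marked 23 of 70 zinc finger genes (32.9%) and 69 of 150 other genes (46%). In the band of 25 to 32, it marked 16 of 49 zinc finger genes (32.7%, 19.9 to 47.5) and 114 of 197 other genes (57.9%, 50.6 to 64.9). In the highest band, of at least 33, it marked 8 of 14 zinc finger genes (57.1%, 28.9 to 82.3) and 87 of 206 other genes (42.2%, 35.4 to 49.3). PML/RARA in the band of 25 to 32 marked 31 of 49 zinc finger genes (63.3%) and 171 of 197 other genes (86.8%), the widest gap of the bands. In the remaining bands, low to high, PML/RARA shares of zinc finger genes were 40%, 47.1%, 61.4% and 71.4%. Those of other genes were 44.6%, 63.3%, 81.3% and 85.4%. The PML/RARA share of zinc finger genes thus rose with CpG count. The promoters of ZNF101 to ZNF254 had a median of 10 CpG, the lowest of any cluster.

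Pooled over clusters, the cluster spans held fewer peaks per Mb than the rest of the chromosome. The spans held 23.6 PML/RARA peaks per Mb, against 77.6 on the rest of the chromosome, and 8.14 PPARα peaks per Mb against 11.2. These densities include the members' own peaks. Of the 117 PPARα peaks in the spans, 86 were at a member's end or listed start (73.5%), as were 155 of the 339 PML/RARA peaks (45.7%). Of the remaining PML/RARA peaks in the spans, 27 were at an end of another coding gene and 157 elsewhere. ZNF101 to ZNF254 had 8.52 PML/RARA and 5.83 PPARα peaks per Mb. Some clusters lay above the rest of the chromosome, namely ZNF554 to ZNF77 with 79.9 PML/RARA peaks per Mb. For PPARα these were ZNF264 to ZNF446 with 13.1 and ZNF653 to ZNF791 with 12.2 peaks per Mb. The other coding genes inside the spans had PML/RARA peaks at 36 of 90 (40%), against 777 of 1115 outside (69.7%), and PPARα peaks at 19 of 90 (21.1%), against 371 of 1115 (33.3%). Members in clusters had PML/RARA peaks at 124 of 232 (53.4%) and PPARα peaks at 75 of 232 (32.3%).

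Few zinc finger genes start beside another coding gene. A coding gene's end lay within 1 kb of the start of 27 of 216 members (12.5%) and 243 of 969 other genes of the chromosome (25.1%), against 19.8% of all coding genes. PML/RARA marked 14 of those 27 members (51.9%) and 196 of those 243 other genes (80.7%), against 85.02% of all such coding genes. PPARα marked 10 of the 27 members (37.0%) and 119 of the 243 other genes (48.97%), against 59.6%. At starts farther from other genes the PML/RARA shares were 108 of 189 (57.1%) and 488 of 726 (67.2%), against 53.7% of all. The PPARα shares there were 62 of 189 (32.8%) and 221 of 726 (30.4%), against 28.3%.

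The genes of the KRAB silencing pathway carried peaks more often than the zinc finger genes themselves. Of 42 listed genes, 24 had a PPARα peak (57.1%) and 40 a PML/RARA peak (95.2%), against 32.3% and 57.8% of all coding genes. The intervals were 41.0 to 72.3 for PPARα and 83.8 to 99.4 for PML/RARA, and the list was chosen with earlier results of these data known. TRIM28, the co-repressor itself, had a PPARα fold of 9.79 and a PML/RARA fold of 23.3, and SETDB1 folds of 8.27 and 28.8. CBX5, the HP1α chromatin reader, had a PPARα fold of 11.1, the maintenance methyltransferase DNMT1 of 13.3, MTA2 of 12.8, CBX3 of 10.4, RBBP4 of 14.3, GATAD2A of 13.0 and SMARCAD1 of 13.6. MTA1 and UHRF1 had a peak in neither list.

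The other zinc finger genes of chromosome 19, named ZFP, ZSCAN, ZBTB, ZIM, ZIK, MZF, KLF or PEG3, numbered 23. PPARα marked 4 of them (17.4%, 4.95 to 38.8, against 32.3% of all coding genes) and PML/RARA marked 8 (34.8%, 16.4 to 57.3, against 57.8%). MZF1, a myeloid zinc finger factor, had a PPARα −log10 q of 141, above the 44.1 of ZNF333. KLF2 and ZSCAN22 followed with PPARα folds of 8.97 and 9.16.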

How the data were processed

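CUT&Tag peak lists for PPARα and PML/RARA in NB4 cells, 1 list per antibody, were used as deposited. Per the submitters' processing notes, Bowtie2 2.2.9, SAMtools, MACS 1.4.2 and bedtools were used on hg38; their roles and settings are not given in the sources used here. The files have a narrowPeak layout that this MACS version does not write, so the caller's version is unsettled. Whether the IgG libraries served as controls is not stated, so what background the fold and q-value refer to is unknown. Each deposited peak has a fold enrichment (a linear ratio over background, by the authors) and a −log10 q-value; the deposited p-value column was not used. No IgG coverage was used, and the depth behind each list is unknown, so a gene without a peak is 1 where none was called.

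Genes, listed starts and promoters came from RefSeq tables of GRCh38.p14. The strand was taken from the promoter table. Each gene kept the peak of highest −log10 q touching 1 kb around either end, and peaks wholly inside the gene beyond those windows were body peaks. Intervals are 95% Clopper-Pearson and cover counting error only. With no replicate there are no tests across samples. Words were searched on both strands, and identity was taken from global alignments. The procedure was checked on simulated peaks. Python 3.11.15, pandas 2.3.3 and scipy 1.17.1 were used.

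Named genes were those of highest −log10 q per list, best summed rank, PPARα peak alone, highest body peaks, the leading and first unmarked members per cluster, and the leading genes of the silencing and other zinc finger lists; genes with known functions were added after their values were seen. The members and lists were chosen with earlier results of these data known. Counts of fingers and KRAB domains were planned, and protein sequences were not used here.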

Additional observations from a re-analysis of the deposited data

How the results depend on the processing

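No paired analysis was possible because each antibody has a single peak list. The alternatives were a −log10 q or fold of at least 5, the PML/RARA list shortened to the PPARα number of peaks, windows of 500 bases and 5 kb, the summit in place of any base, the annotated start alone, read-through symbols added, weighting of the comparison genes by length or CpG count, all other coding genes as comparison, and other cluster gaps. Counting any listed start was added after the data were seen. The PML/RARA list shortened to the PPARα number left 57 members with a PML/RARA peak in place of 133, 46 with both in place of 78, 24 with a body peak in either list in place of 48 and 2 with a PML/RARA finish peak in place of 7. The PML/RARA difference between members and other chromosome 19 genes, -13.4 percentage points, was -21.1 with the shortened list, -20.7 with windows of 5 kb, -3.82 against all other coding genes and -2.93 with any listed start, and negative under each alternative run. The PPARα difference of -0.251 points was within counting error of 0 and took either sign; with windows of 5 kb it was -6.98. The excess of PPARα among PML/RARA-marked members, 10.7 points, ran between 3.53 and 14.04. PML/RARA finish peaks numbered 4 with windows of 500 bases and 39 with windows of 5 kb. The spread of PPARα shares over clusters, 37.5 points, became 91.3 with gaps of 250 kb, which made ZNF675 to ZNF254, with PPARα at 4 of 4 members, a cluster of its own. PPARα marked 7 other zinc finger genes with windows of 5 kb in place of 4. The cause of these changes was not tested. Depth and the absence of replicates limit every comparison.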
